A study of Mus musculus with 20 samples.

Results

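Hearts of mice that carry MuRF1 were compared after 3 weeks of chow with fenofibrate, 0.05% by weight, and on plain chow. The comparison used 7 of the 20 arrays of the series: the 4 arrays labelled MuRF1 +/+ 3WK FENO and the 3 labelled MuRF1 +/+ CHOW, each with 1 heart described as a separate biological replicate. MuRF1, encoded by Trim63, is a ubiquitin ligase of striated muscle, and the series asks how it bears on the heart growth that fenofibrate induces. The labels put the chow hearts at 8 weeks, so time on diet differed between the groups together with the drug, and the labels give no sex or litter. MuRF1 -/- hearts on the same diets (4 and 3 arrays) and MuRF1 +/+ hearts after 8 weeks of fenofibrate (3 arrays) are used beside them. The series' text calls the mice strain-matched, without naming the strain, and gives their age only as 3 to 8 weeks, the same numbers as the times on diet.

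Fenofibrate is a fibrate that lowers blood lipids by activating PPAR alpha, a nuclear receptor that pairs with RXR and switches on genes of fatty acid uptake and oxidation. The adult heart draws most of its energy from fatty acids, and PPAR alpha targets such as Pdk4, a kinase that holds back glucose oxidation, are often used as a readout of receptor activity. Heart growth is commonly followed through the fetal gene program, which includes the slow myosin Myh7 and the natriuretic peptides Nppa and Nppb.

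Each array set heart RNA (Cy5) against a common pool of whole newborn pups (Cy3), so a level here is a log2 ratio of heart over that pool, and a difference is 3 weeks minus chow on the same log2 scale, given ± SE. Heart signal was clear of background for 40.9% to 47.4% of probes at 3 weeks and for 42.6% to 44.2% on chow. Across genes, arrays correlated at 0.975 to 0.988 within the 3-week group, at 0.984 to 0.990 within chow and at 0.903 to 0.936 between the groups. The Trim63 probe had levels of 2.13 to 2.81 in the 7 MuRF1 +/+ hearts and of -1.19 to -0.49 in the 7 MuRF1 -/- hearts of the same diets, with no overlap between the genotypes. The level of Trim63 differed by 0.08 ± 0.31 between the diets in MuRF1 +/+ hearts (adjusted p = 0.888), although a second, dimmer probe of the gene was 1.00 ± 0.08 higher at 3 weeks. Among 15 cardiomyocyte markers the mean level was 2.66 to 2.90 at 3 weeks and 2.60 to 2.78 on chow. Only 34.0% of probes were clear of background for the second 8-week MuRF1 +/+ heart and 34.4% for the fourth 3-week MuRF1 -/- heart, both apart from their groups, and several values that rest on them are also given without them.

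Sex-linked transcripts divided the 7 hearts exactly as the diets did. Ddx3y and Eif2s3y, both on the Y chromosome, were well above background in 3 of 3 chow hearts but 0 of 4 at 3 weeks. Ddx3y had levels of 1.39, 1.45 and 1.61 on chow, and the 3-week hearts give only a bound. Xist, the RNA that coats the inactive X chromosome, had levels of -0.50, -0.41, -0.27 and -0.00 at 3 weeks against -4.07, -3.87 and -4.24 on chow, a difference of 3.76 ± 0.32. All 9 tested genes of the list of X- and Y-linked sex genes passed the threshold on their tested probes, 6 higher and 3 lower. Of the 6, the X-linked Eif2s3x had another probe that differed by -1.12 ± 0.15. Drug, time on diet and the sex-linked transcripts therefore cannot be told apart in this comparison. This holds for every difference from chow below, and named genes are autosomal unless stated. With the mean level of Ddx3y and Eif2s3y as a covariate, 374 genes passed in place of 3565. That estimate rests mainly on the 8-week MuRF1 -/- hearts, where Ddx3y was at 1.47, -0.68 and 1.30. The 8-week MuRF1 +/+ hearts had low Ddx3y levels (-0.76, -0.62 and -0.41) like the 3-week hearts, and intermediate Xist levels (-2.70, -0.90 and -2.05).

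Of 14563 tested genes, 3565 differed between 3 weeks of fenofibrate and chow at an adjusted p under 0.05 in limma, 24.5% of those tested. Of these, 1789 were higher at 3 weeks (12.3%) and 1776 lower (12.2%), and the median difference over all tested genes was 0.01. The even split depended on the scaling: with each array centred on its median in place of loess, 1027 genes passed and 77.3% of them were higher at 3 weeks. Among 12018 autosomal genes, 1192 rose (9.92%) and 1570 fell (13.1%). The levels of the 4 and the 3 hearts did not overlap for 45.3% of all tested genes (23.4% higher and 21.9% lower at 3 weeks). The first principal component of the 7 arrays held 73.0% of their variance and separated the groups. Leaving out chow replicate 3 left 1999 genes past the threshold, and leaving out chow replicate 1 left 2365. Arrays were taken as 1 scan where the file headers give the same scan entry, and scans 3 and 4 each held 1 heart of either group. Within them the differences were 3.47 and 3.74 for Pinx1, 2.12 and 1.76 for Ttn, -1.60 and -2.80 for Nmrk2, and -1.41 and -1.78 for Cyp1a1, and with the scan as a block 2940 genes passed.

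The largest autosomal rises included long nuclear RNAs and the giant sarcomere protein titin. Malat1, a nuclear RNA retained in speckles, had levels of -0.66, -0.50, -0.88 and -0.39 at 3 weeks and of -2.98, -2.78 and -3.21 on chow. The groups lay far apart, and the difference of 2.39 ± 0.39 (adjusted p = 0.000299) was shared by all 4 Malat1 probes. Neat1, the RNA scaffold of paraspeckles, rose by 2.43 ± 0.53 on its single probe. Ttn, encoding titin, the spring that spans the half-sarcomere, had levels of 1.25, 1.48, 1.25 and 1.45 against -0.87, -0.28 and -0.70. All 9 measured Ttn probes rose, by 1.97 ± 0.30 on the brightest one.

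Most other members of the 12 largest rises rested on 1 probe. Pinx1, a telomerase inhibitor, had levels of 3.61, 3.35, 2.47 and 2.87 at 3 weeks against 0.14, -0.39 and -0.56 on chow, the largest autosomal difference at 3.35 ± 0.39 (adjusted p = 2.25e-05). A second Pinx1 probe differed by 0.06 ± 0.08. L3mbtl2, a chromatin protein, rose by 2.77 ± 0.29 on the tested probe, and its other probe was lower at 3 weeks (-0.38 ± 0.10). Ddx42, an RNA helicase, rose by 2.48 ± 0.28, with 0.28 ± 0.11 on the other probe. Ing5, a reader of histone methylation (2.42 ± 0.31), and Gabbr2, a GABA receptor subunit (2.41 ± 0.34), likewise had other probes at 0.08 or less. Srrm3, Stra6 and Pdia5 had a single probe and rose by 3.04 ± 0.32, 2.85 ± 0.34 and 2.23 ± 0.30. Zfc3h1, a factor of nuclear RNA decay, rose by 2.06 ± 0.33, and 3 of its 4 other probes passed in the same direction. In 9 of these 12 genes the 4 hearts at 3 weeks stood in the same order as their shares of heart probes above background (47.4%, 46.4%, 40.9% and 44.2% for replicates 1 to 4), and in 1 of the 12 largest falls. How many of all tested genes stood in that order was not counted, and the part of that share in these rises was not tested.

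**Figure D1:**
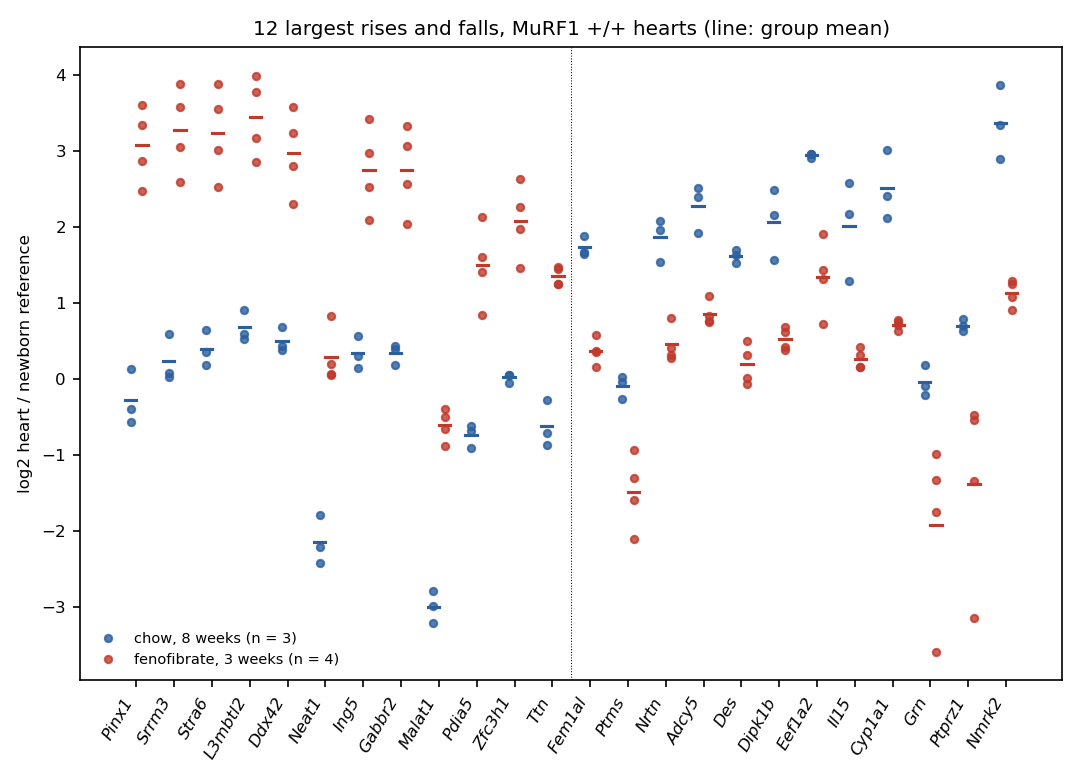
Levels (log2 heart over newborn reference) of the 12 largest autosomal rises and the 12 largest falls in each MuRF1 +/+ heart, with chow in blue (n = 3) and 3 weeks of fenofibrate in red (n = 4); short lines are group means. The groups do not overlap for any of the 24 genes, which was a condition for their choice, and the 3-week hearts spread widely for Grn and Ptprz1.

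Probes of a gene did not always tell the same story across the array. A second measured probe existed for 1192 of the 3565 called genes, and in 370 of them every other probe passed in the same direction (105 higher, 265 lower), whereas in 333 at least 1 other probe had the opposite sign. Among genes whose every probe rose, a set singled out after their values were seen, the largest autosomal differences after Ttn and Malat1 included those of the following genes. Clk1, a kinase of splicing factors, rose by 1.45 ± 0.22, and Ddx5, an RNA helicase, by 1.08 ± 0.16. Pnisr, a splicing-related protein, had levels of 0.17, -0.08, 0.11 and 0.22 against -0.88, -0.89 and -1.02, a rise of 1.04 ± 0.15 (adjusted p = 0.000134). Zbtb20, a transcriptional repressor, had levels of 1.89, 1.92, 1.90 and 1.98 against 0.48, 0.65 and 0.56, a rise of 1.36 ± 0.20 (adjusted p = 0.000158). Paxbp1 (1.02 ± 0.14), Zcchc7 (1.08 ± 0.20) and Rnf111, a ubiquitin ligase (1.01 ± 0.17), rose as well.

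**Figure D2:**
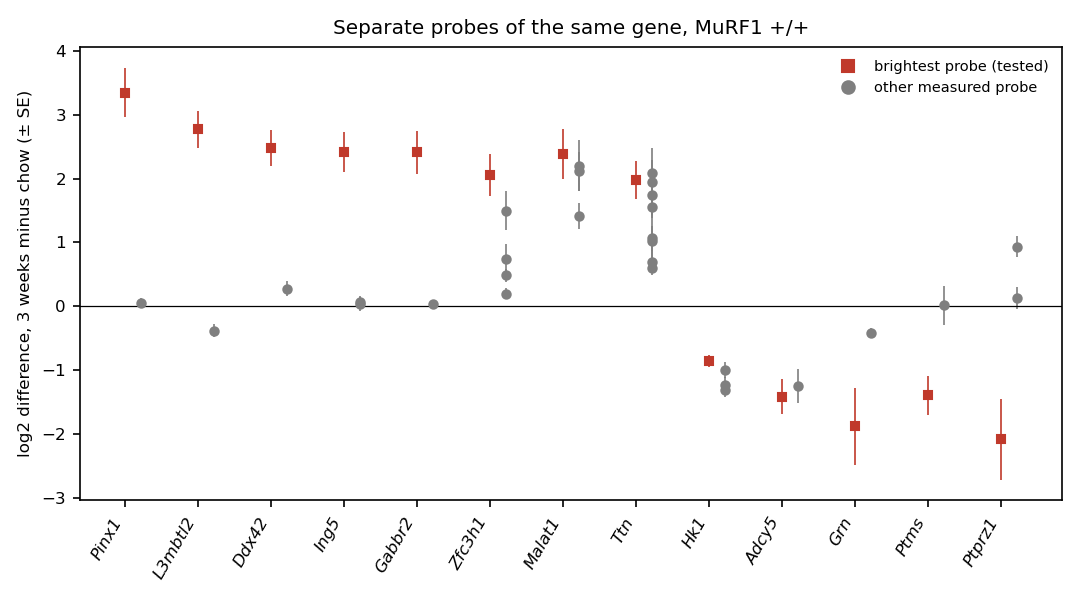
Differences between 3 weeks and chow (log2 ± SE) for each measured probe of 13 genes, with the tested, brightest probe as a red square and other probes in grey. All probes of Ttn, Malat1, Hk1 and Adcy5 lie on 1 side of 0, while the other probes of Pinx1, Ing5 and Gabbr2 lie at 0.08 or less.

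Probes that kept a clone or transcript name in the files, with no RefSeq symbol, were called more often than named genes. Of 2153 such names, 546 were higher at 3 weeks (25.4%) and 174 lower (8.08%), against 1243 (10.0%) and 1602 (12.9%) of 12410 RefSeq symbols. Genes that rose had a longer median span in the genome. The median distance from the first to the last base of a gene in RefSeq GRCm38.p6 was 34.8 kb for the 1192 autosomal genes that rose, 15.2 kb for the 1570 that fell and 22.5 kb for all 12018 tested. These are descriptions with no test.

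The largest fall was that of Nmrk2, and Cyp1a1 was among the 4 largest. Both were low after 8 weeks too. Nmrk2, the muscle kinase that turns nicotinamide riboside into an NAD precursor, had levels of 1.29, 1.07, 1.25 and 0.90 at 3 weeks against 2.89, 3.87 and 3.34 on chow. The fall was 2.24 ± 0.33 on the log2 scale, or 4.72-fold (adjusted p = 0.000144). Cyp1a1, the classical target of the aryl hydrocarbon receptor, had levels of 0.71, 0.63, 0.77 and 0.75 against 2.12, 2.41 and 3.01. It fell by 1.80 ± 0.24, or 3.48-fold (adjusted p = 5.39e-05). After 8 weeks of fenofibrate, Nmrk2 was at 0.71, 0.32 and 1.32 and Cyp1a1 at 0.75, 0.28 and 0.15. The 3-week and 8-week levels differed by 0.35 ± 0.33 for Nmrk2 and by 0.32 ± 0.24 for Cyp1a1 (adjusted p = 0.509 and 0.381; 0.11 ± 0.36 and 0.26 ± 0.27 without 8-week replicate 2), and the comparisons with chow share their chow hearts.

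As these were the 2 largest falls that no single heart decided, the bases before their start sites are shown, from RefSeq's promoter table for GRCm38.p6 and 5′ to 3′ on the strand of the gene, chr9:57697363-57697612 on the plus strand for Cyp1a1 and chr10:81202038-81202287 on the minus strand for Nmrk2. Capitals mark GCGTG, the core bound by the aryl hydrocarbon receptor with its partner, searched on both strands.
Cyp1a1: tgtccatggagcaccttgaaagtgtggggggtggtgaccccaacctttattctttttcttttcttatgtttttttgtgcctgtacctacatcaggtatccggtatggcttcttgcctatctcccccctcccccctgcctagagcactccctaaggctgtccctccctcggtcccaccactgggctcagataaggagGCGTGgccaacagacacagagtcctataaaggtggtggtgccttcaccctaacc
Nmrk2: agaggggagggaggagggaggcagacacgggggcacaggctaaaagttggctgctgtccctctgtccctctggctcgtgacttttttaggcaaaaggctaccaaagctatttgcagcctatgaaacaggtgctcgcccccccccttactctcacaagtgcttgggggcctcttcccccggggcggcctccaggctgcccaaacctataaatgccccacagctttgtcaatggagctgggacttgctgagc
The 250 bases before Cyp1a1 held 1 match, starting 54 bases before the start site, and those before Nmrk2 held 0. Of 27025 genes in the table, 30.9% had a match in the same window, which is a match of letters and not a measured site.

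Other genes of NAD, heme and aryl hydrocarbon receptor metabolism moved less. Of 25 tested members of that list, 3 rose and 5 fell, against 12.3% and 12.2% of all tested genes, with a median of -0.08. Alas1, the first and rate-setting enzyme of heme synthesis, had levels of 0.68, 0.59, 0.66 and 0.67 at 3 weeks, 1.497, 1.326 and 1.512 on chow and -0.22, -0.16 and -0.31 after 8 weeks. It fell by 0.79 ± 0.10 against chow (adjusted p = 3.17e-05) and was 0.88 ± 0.10 higher at 3 than at 8 weeks (adjusted p = 1.81e-05; 0.92 ± 0.11 without 8-week replicate 2), so the 3-week hearts lay between the other groups with no overlap. Other aryl hydrocarbon receptor genes did not pass, with differences of -0.00 ± 0.07 for Cyp1b1, -0.10 ± 0.16 for Ahrr, -0.04 ± 0.15 for Tiparp and -0.08 ± 0.20 for Nqo1. Gclc, which sets the rate of glutathione synthesis, rose by 0.40 ± 0.10, a call lost without chow replicate 3.

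The remaining largest falls included those of Il15, Eef1a2, Adcy5 and Des. Il15, a cytokine made by muscle, was above background on 3 of the 4 arrays at 3 weeks and had levels of 0.42, 0.32, 0.16 and 0.16 against 2.17, 1.29 and 2.58, a fall of 1.75 ± 0.23, and its second probe differed by -0.17 ± 0.06 (adjusted p = 0.0646). Eef1a2, the elongation factor of adult muscle and neurons, fell by 1.60 ± 0.30. Adcy5, the major adenylyl cyclase of the heart, fell by 1.41 ± 0.27 and on both probes. Dipk1b, Nrtn, which encodes the growth factor neurturin, and Fem1al fell by 1.54 ± 0.21, 1.41 ± 0.24 and 1.37 ± 0.33. Des, the intermediate filament that ties sarcomeres together, fell by 1.42 ± 0.40, a call lost without chow replicate 1 or chow replicate 3. Ptms, encoding parathymosin, fell by 1.39 ± 0.31 on 1 probe, with 0.02 ± 0.31 on the other.

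Ptprz1 and Grn, also among the 12 largest falls, rested on fewer hearts. Their levels at 3 weeks were -3.14, -0.47, -1.34 and -0.54 for Ptprz1 and -3.58, -0.99, -1.75 and -1.33 for Grn, with replicate 1 far below the others. Both calls were lost without 3-week replicate 1 and without any 1 of the chow hearts. A second Ptprz1 probe was 0.93 ± 0.16 higher at 3 weeks, whereas a second Grn probe differed by -0.41 ± 0.07, in the direction of the tested one.

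Among genes whose every probe fell, again singled out after their values were seen, Cited4, a coactivator linked to exercise-induced heart growth, had levels of -0.25, 0.38, 0.34 and 0.21 against 1.34, 1.20 and 1.38. It fell by 1.14 ± 0.16 (adjusted p = 8.02e-05). Tomm40, the pore of the mitochondrial import complex, fell by 1.15 ± 0.13, and Mrps23, a mitochondrial ribosomal protein, by 1.16 ± 0.26. Atg4d, a protease of autophagy (1.21 ± 0.16), and the ubiquitin-pathway enzymes Ube2m (1.17 ± 0.17) and Cdc34 (1.09 ± 0.17) were lower by these amounts, as was Pgp (1.17 ± 0.16). Groups free of overlap were a condition for the choice of these genes, and 21.9% of all tested genes were lower at 3 weeks without overlap.

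After 8 weeks of fenofibrate 2147 genes differed from chow (14.7%), 843 higher (5.79%) and 1304 lower (8.95%). Without 8-week replicate 2, 1001 genes differed, 391 higher and 610 lower. The 12 largest rises at 3 weeks had differences of -0.00 for Gabbr2 to 1.30 for Ttn from the same chow hearts after 8 weeks (-0.34 for Neat1 to 0.86 for Ttn without that heart). These are descriptions, since the genes were chosen as the largest at 3 weeks and both comparisons share the chow hearts. Pinx1 was at -0.38, 1.89 and 0.28 after 8 weeks, with the high value in replicate 2, and stood 2.48 ± 0.39 higher at 3 weeks (3.12 ± 0.30 without that heart). Malat1 was 1.56 ± 0.39 higher at 3 than at 8 weeks (2.22 ± 0.29 without replicate 2) and Neat1 1.66 ± 0.53 higher (2.78 ± 0.25). Ttn differed by 0.67 ± 0.30 between the durations (adjusted p = 0.129), but by 1.11 ± 0.26 without replicate 2, a difference that passed. Among the falls, Nrtn was 1.32 ± 0.24 lower at 3 than at 8 weeks (1.48 ± 0.26 lower without replicate 2), whereas Dipk1b and Adcy5 both differed by -0.21 and did not pass (-0.52 ± 0.18 and -0.64 ± 0.22 without replicate 2, adjusted p = 0.0507 and 0.0519).

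No tested probe of a canonical PPAR alpha target gene passed the threshold as higher at 3 weeks. Of 42 tested members, 0 rose and 5 fell in limma (1 and 9 at an unadjusted p under 0.05), against 12.3% and 12.2% of all tested genes, with a median of -0.05. Pdk4 had levels of -0.78, -0.14, -0.12 and -0.35 at 3 weeks, -0.65, -1.06 and -0.78 on chow and 2.86, 1.19 and 1.92 after 8 weeks. The 3-week and chow hearts overlapped (0.48 ± 0.33, adjusted p = 0.319), and all 8-week hearts lay above both. Acot1, an acyl-CoA thioesterase, had levels of -1.84, -1.72, -1.51 and -1.65 at 3 weeks against -1.98, -1.56 and -2.28 on chow and 1.61, -0.59 and 1.00 after 8 weeks. Its difference from chow was 0.26 ± 0.36 (adjusted p = 0.652), although a near-identical copy of the gene, Acot2, may share its probe. Angptl4, a secreted inhibitor of lipoprotein lipase, differed by 0.13 ± 0.34. The transport enzymes Cpt1a and Cpt1b and the fatty acid transporter Cd36 differed by 0.13 ± 0.08, 0.11 ± 0.13 and 0.36 ± 0.21, and none passed. Other probes than the tested one differed for some targets. A second probe of Hadha, a subunit of the mitochondrial trifunctional protein, was higher at 3 weeks (0.36 ± 0.07), with -0.39 ± 0.20 on the tested probe. Further probes of the peroxisomal thiolase Acaa1a (-0.51 and -0.73) and of Acsl1, an acyl-CoA synthetase (-0.48 and -0.73), were lower.

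The 5 PPAR alpha targets that fell were Pnpla2, Plin5, Slc27a1, Pex11a and Acaa1b. Pnpla2, the lipase that opens triglyceride breakdown, had levels of 0.00, 0.08, 0.04 and 0.13 at 3 weeks, 0.78, 0.68 and 0.78 on chow and 1.22, 1.32 and 1.82 after 8 weeks. It fell by 0.69 ± 0.12 against chow (adjusted p = 0.000672), while the 8-week hearts stood above both groups. Plin5, a coat protein of lipid droplets, fell by 0.69 ± 0.19, a call lost without chow replicate 1 or 3. Slc27a1, a fatty acid transporter (fall of 0.76 ± 0.26), and Pex11a, a factor of peroxisome division (0.29 ± 0.10), were near the threshold. The Slc27a1 call was lost without any 1 of the 7 hearts and the Pex11a call without any 1 but 3-week replicate 3. Acaa1b, a peroxisomal thiolase, fell by 0.26 ± 0.07, a call lost without chow replicate 1.

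Set directly against 8 weeks of fenofibrate, which leaves out the chow hearts, 8 of the 42 targets were lower at 3 weeks and 1 was higher. Over all tested genes, 2585 differed between the durations (17.8%), 1408 higher at 3 weeks (9.67%) and 1177 lower (8.08%), so that 54.5% of them were higher (and 91.4% of 1211 with median centring, which moved the median of all genes to 0.20). Sex-linked Ddx3y was low in both groups, while Xist was 1.59 ± 0.32 higher at 3 weeks (adjusted p = 0.00225; 2.08 ± 0.27 without 8-week replicate 2). Pdk4, Acot1, Pnpla2 and Angptl4 were lower at 3 weeks by 2.34 ± 0.33, 2.35 ± 0.36, 1.39 ± 0.12 and 1.51 ± 0.34. Without 8-week replicate 2, which stood apart, these differences were -2.74 ± 0.32, -2.98 ± 0.26, -1.46 ± 0.14 and -1.72 ± 0.38, and 9 targets were lower and 0 higher.

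**Figure D3:**
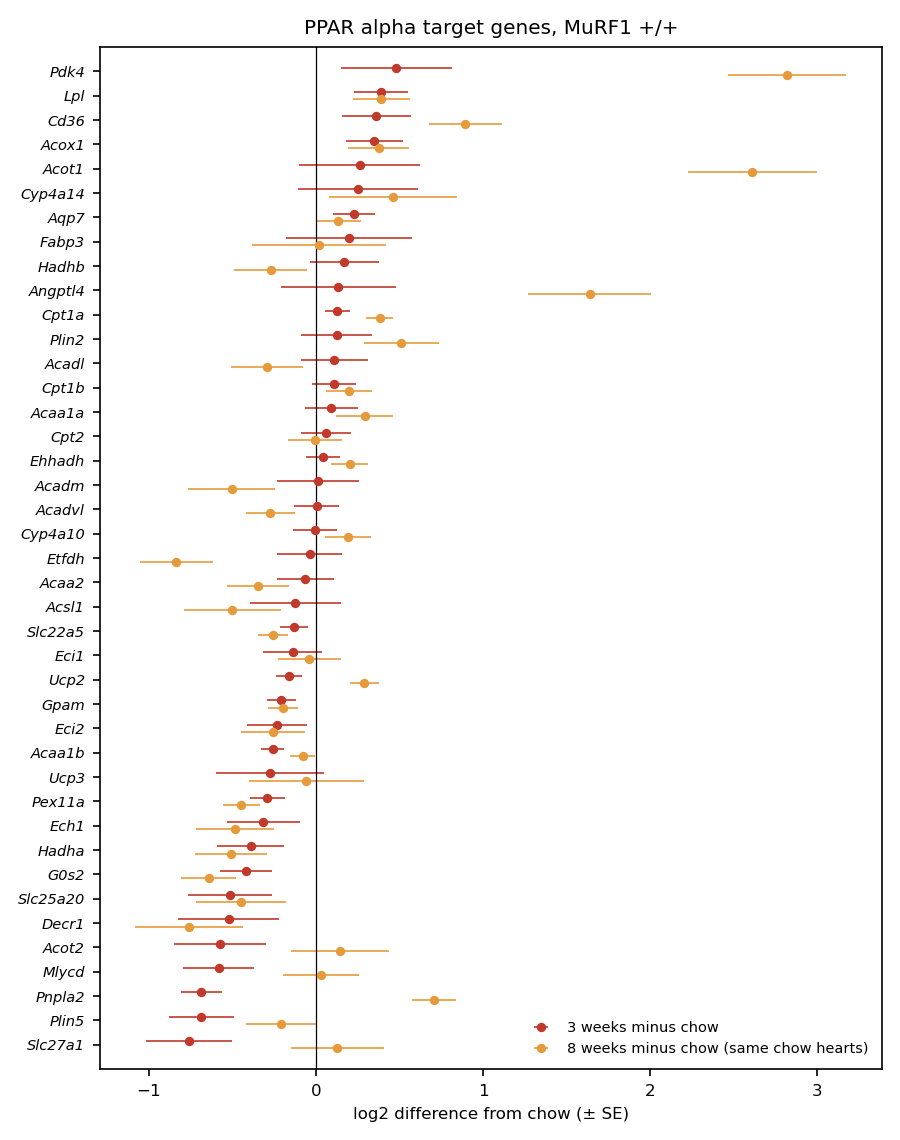
Differences from chow (log2 ± SE) of the PPAR alpha target genes reported here in MuRF1 +/+ hearts after 3 weeks (red, n = 4) and 8 weeks (orange, n = 3) of fenofibrate, both against the same 3 chow hearts. Pdk4, Acot1 and Angptl4 lie near 0 at 3 weeks (0.48, 0.26 and 0.13) and between 1.64 and 2.82 at 8 weeks.

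Of 24 tested genes of glucose uptake and glycolysis, 1 rose and 3 fell, against 12.3% and 12.2% of all tested genes, and the list's median was -0.05, or -0.38 with median centring. Hk1, the hexokinase bound to mitochondria, had levels of 0.44, 0.67, 0.66 and 0.67 against 1.65, 1.34 and 1.40, a fall of 0.85 ± 0.09 (adjusted p = 9.42e-06) that all 4 of its probes showed. Pfkfb2, the cardiac enzyme that makes the activator of phosphofructokinase, had levels of 1.28, 1.22, 1.30 and 1.08 against 0.37, 0.59 and 0.43, a rise of 0.76 ± 0.09. Other Pfkfb2 probes differed by 0.42 ± 0.10 and 0.01 ± 0.09. The tested probe was also 1.06 ± 0.09 higher at 3 than at 8 weeks (adjusted p = 1.66e-06, and 1.02 ± 0.10 without 8-week replicate 2). Pfkl, a phosphofructokinase, fell by 0.58 ± 0.10 and Eno1 by 0.29 ± 0.08, and the Eno1 call was lost without chow replicate 1. The insulin-responsive transporter Slc2a4 differed by -0.05 ± 0.23.

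Mitochondrial energy genes were largely below the threshold, which 12.3% of all tested genes passed as higher and 12.2% as lower. Ogdh, a subunit of the oxoglutarate dehydrogenase of the tricarboxylic acid cycle, had levels of 1.11, 1.41, 0.85 and 1.15 against 2.19, 2.18 and 2.04 and fell by 1.00 ± 0.21 (adjusted p = 0.00237), the only 1 of 18 tested cycle genes to pass. Of 45 genes of the respiratory chain and ATP synthase, 2 rose (Ndufa4 by 0.60 ± 0.18 and Cox4i1 by 0.39 ± 0.12) and 1 fell (Atp5d by 0.32 ± 0.10). The list's median was 0.19, but -0.15 with median centring, where the difference of Cox4i1 was -0.0063. Each of these 3 calls was lost when certain single hearts were left out, chow replicate 1 among them.

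Some contractile and growth genes passed in either direction, as did 12.3% (higher) and 12.2% (lower) of all tested genes. Of 27 tested genes of the sarcomere, Z-disc and M-band, 5 rose and 3 fell (median 0.09, and -0.13 with median centring). Beside Ttn, Myom2, an M-band protein that binds titin, rose by 0.67 ± 0.15 with levels of 2.58, 2.33, 2.24 and 2.46 against 1.77, 1.77 and 1.67. Myl7, the atrial light chain, had levels of 0.01, -0.01, -0.01 and -0.58 against -2.10, -1.57 and -2.15, a rise of 1.79 ± 0.50 (adjusted p = 0.0139) that was lost without chow replicate 1 or 3. It was the only called member among 10 tested atrial markers. Actc1, cardiac actin, fell by 0.64 ± 0.19, a call lost on leaving out chow replicate 1, chow replicate 3 or 3-week replicate 3, and the alpha myosin Myh6 differed by 0.09 ± 0.22.

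Of 24 tested members of the fetal and hypertrophy program, 1 rose and 6 fell, against 12.3% and 12.2% of all tested genes (median -0.11). Nkx2-5, a core cardiac transcription factor, had levels of 1.71, 2.62, 2.07 and 2.26 against 3.41, 3.15 and 3.47, a fall of 1.18 ± 0.21 (adjusted p = 0.000727). The Nkx2-5 call was lost in limma with Agilent's own log ratio (-0.51, adjusted p = 0.194) and with the authors' deposited ratios (-0.86, adjusted p = 0.134). Hand2, another such factor, fell by 0.57 ± 0.16, a call lost without chow replicate 3. Myh7 had levels of -0.53, -1.90, -1.44 and -0.80 at 3 weeks, -0.10, 0.51 and -0.01 on chow and 2.39, 0.83 and 2.22 after 8 weeks. Its fall of 1.30 ± 0.41 (adjusted p = 0.0268) was lost on leaving out the second or the third heart of either group. It was 2.98 ± 0.41 lower at 3 than at 8 weeks (adjusted p = 0.000104; 3.48 ± 0.39 lower without 8-week replicate 2). The natriuretic peptide genes Nppa and Nppb differed from chow by 0.06 ± 0.21 and 0.23 ± 0.42. In MuRF1 -/- hearts Nppa rose by 1.03 ± 0.21 (adjusted p = 0.00156; 0.88 ± 0.20 without 3-week replicate 4), but the difference of the responses did not pass (0.97 ± 0.29, adjusted p = 1.00).

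Of 28 tested genes of calcium handling and conduction, 7 fell and 3 rose, against 12.2% and 12.3% of all tested genes, with a median of -0.21. Kcnip2, the partner of the fast transient outward channel, had levels of 0.76, 0.90, 0.49 and 0.62 against 1.88, 1.75 and 2.09, a fall of 1.22 ± 0.29 (adjusted p = 0.00498). Kcnh2, the rapid delayed rectifier, had levels of 0.10, 0.63, 0.28 and 0.40 against 1.37, 1.16 and 1.54, a fall of 1.01 ± 0.16 (adjusted p = 0.000231). Kcnj11, the pore of the ATP-sensitive channel, fell by 0.82 ± 0.20. Jph2, which joins the sarcoplasmic reticulum to the T-tubule, fell by 0.91 ± 0.26, a call lost without 3-week replicate 1 or chow replicate 1 or 3. The other Jph2 probe differed by -1.77 ± 0.19. Calr, a calcium-binding chaperone, rose by 0.59 ± 0.11 on the tested probe, with -0.18 ± 0.08 on the other, and Cacnb2 rose on 1 of 3 probes (0.92 ± 0.20). The calcium pump Atp2a2 differed by 0.19 ± 0.29 and the release channel Ryr2 by -0.32 ± 0.19.

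Some protein quality control genes passed in either direction, as did 12.3% (higher) and 12.2% (lower) of all tested genes. Among 32 tested members of the ubiquitin and proteasome list, 7 rose and 4 fell (median -0.00). Trim55, encoding MuRF2, the closest relative of MuRF1, had levels of -0.17, -0.09, -0.30 and 0.24 against -1.10, -1.28 and -1.35, a rise of 1.16 ± 0.21 (adjusted p = 0.00066). The proteasome subunit Psma5 (0.39 ± 0.08) and the ligase Itch (0.41 ± 0.10) rose, Smurf1 fell by 0.44 ± 0.09, and Fbxo32, the atrogin ligase, differed by 0.41 ± 0.21. Of 19 tested heat shock and chaperone genes, 5 rose and 2 fell. Hsp90b1, a chaperone of the endoplasmic reticulum, rose by 1.14 ± 0.16 and Hspa5, its partner there, by 0.63 ± 0.16. Hspb6, a small heat shock protein of muscle, had levels of 1.38, 1.36, 0.98 and 0.95 against 2.44, 2.46 and 2.68 and fell by 1.36 ± 0.26 (adjusted p = 0.00108).

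Of 42 tested cytosolic ribosomal protein genes, 9 rose and 0 fell, against 12.3% and 12.2% of all tested genes. Rpl14 led in precision (0.54 ± 0.09, adjusted p = 0.000448). The list's mean level was -0.76 to -0.62 at 3 weeks and -1.11 to -0.87 on chow. Its median difference of 0.27 turned to -0.07 with median centring, so the direction of this family depends on the scaling. Cell cycle genes gave 0 calls of 21 tested in limma, with 4 higher at an unadjusted p under 0.05. Of 20 tested postnatal growth genes, 3 rose and 0 fell, against the same shares of all tested genes. Igf1r, the receptor of insulin-like growth factor 1, rose by 0.49 ± 0.11 on 1 of its 4 probes, with 0.02, 0.07 and -0.05 on the others, while the calls of Col3a1 and Grb10 were each lost without any 1 of the chow hearts.

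Srebf1, the transcription factor of fatty acid synthesis, had levels of -1.87, -1.31, -1.29 and -1.20 against -0.16, -0.86 and -0.35, a fall of 0.96 ± 0.18 (adjusted p = 0.00101), within a list of 27 where 3 rose and 3 fell. Stard4, a cholesterol carrier, rose by 0.67 ± 0.15. Of 16 tested circadian clock genes, 1 rose and 5 fell, against 12.3% and 12.2% of all tested genes (median -0.22). The calls of Nfil3, Hlf and Cry2, which fell by 0.65 ± 0.18, 0.60 ± 0.20 and 0.45 ± 0.13, were each lost without chow replicate 3. Those of Hlf and Cry2 were also lost without chow replicate 1, and that of Hlf without any 1 of the 3-week hearts. The clock outputs Dbp and Per1 differed by -0.18 ± 0.17 and -0.27 ± 0.15. The labels give no hour of harvest. Of 28 interferon response genes, 4 rose and 0 fell, including Gbp3 (0.64 ± 0.17); the list's median of 0.21 was -0.19 with the Y-linked covariate, and Isg15 differed by 0.07 ± 0.10. Of 23 immediate early genes, 2 rose and 2 fell.

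**Figure D4:**
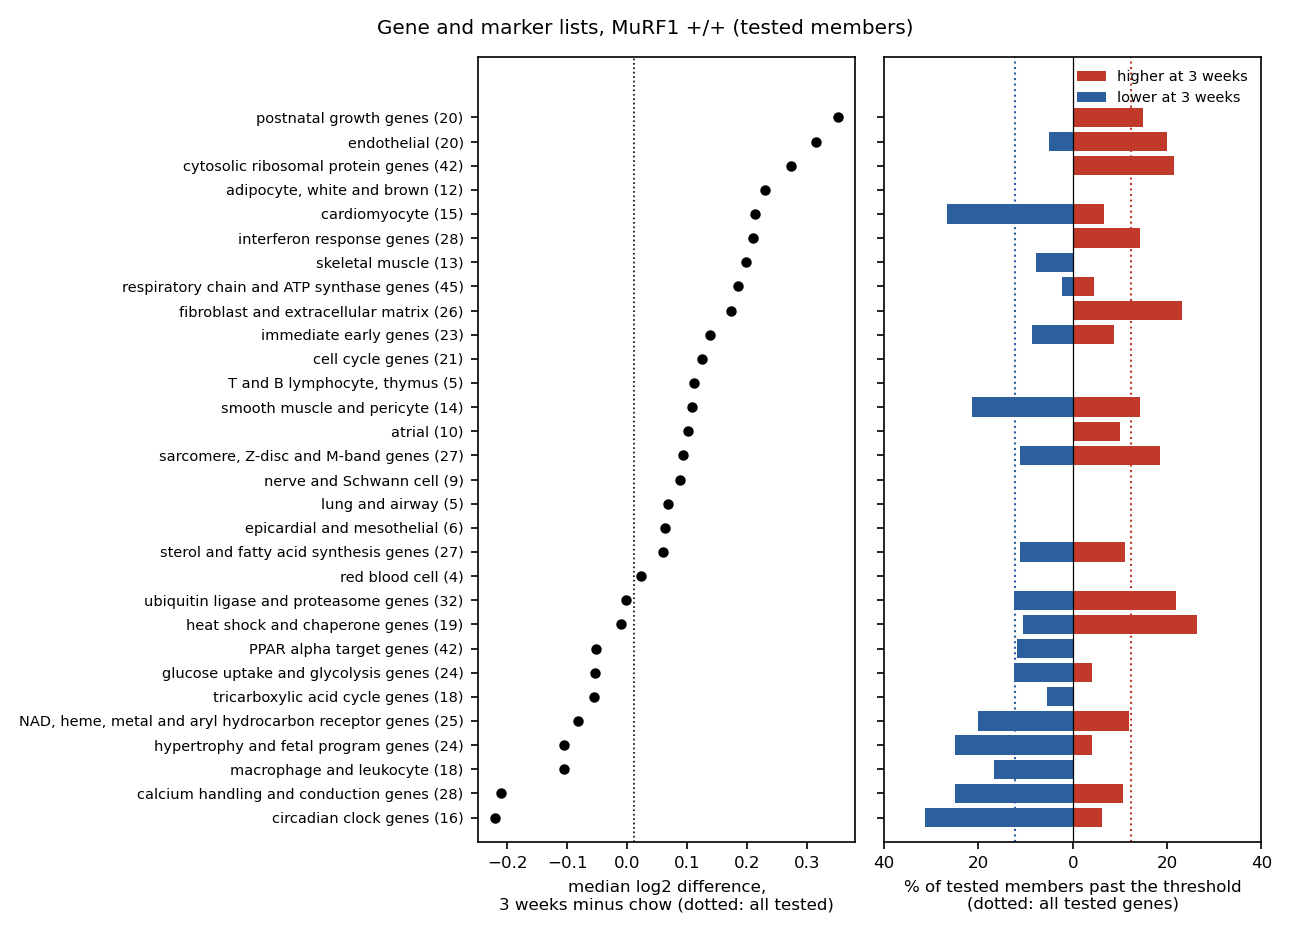
Left, median difference between 3 weeks and chow (log2) of the tested members of each gene and marker list other than the sex-linked one, with their number in brackets and the median of all tested genes dotted. Right, the share of tested members past the threshold in each direction, with the shares of all tested genes (12.3% higher, 12.2% lower) dotted; calcium handling and clock genes lie lowest at -0.21 and -0.22.

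Some markers of other cell types passed the threshold, beside 24.5% of all tested genes (12.3% higher and 12.2% lower). In whole hearts, fewer cells of a type and less RNA per cell cannot be told apart. Of 26 tested fibroblast and matrix markers, 6 rose and 0 fell, among them Lum, encoding the matrix proteoglycan lumican (1.12 ± 0.27), and Col4a1, a basement membrane collagen (0.83 ± 0.20), whose second probe differed by -0.06 ± 0.15. The call of Col3a1 (1.13 ± 0.39) was lost without any 1 of the 7 hearts. The mean level of that list was -1.83 to -1.52 at 3 weeks and -2.10 to -1.89 on chow. Of 20 endothelial markers, 4 rose and 1 fell (means of 0.51 to 0.75 against 0.30 to 0.35), including Egfl7 (0.74 ± 0.22), a call lost without 3-week replicate 4 or chow replicate 1 or 2. Of 18 macrophage and leukocyte markers, 0 rose and 3 fell, among them the complement gene C1qa (0.62 ± 0.13). Of 14 smooth muscle and pericyte markers, 2 rose and 3 fell, including Smtn (fall of 0.67 ± 0.12). Of 15 cardiomyocyte markers, 1 rose and 4 fell, and of 13 skeletal muscle markers 1 fell, Atp2a1 (1.09 ± 0.31), a call lost without chow replicate 1 and with 0.07 ± 0.16 on its second probe. Lymphocyte, red blood cell, adipocyte, nerve, epicardial and lung markers gave 0 calls in limma of 5, 4, 12, 9, 6 and 5 tested. At an unadjusted p under 0.05, 1 lymphocyte and 2 adipocyte markers were higher. The part of cell composition in the other differences was not tested.

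The same diet contrast in MuRF1 -/- hearts, which share no heart with this comparison, was compared gene by gene. Both contrasts came from 1 fit that shares its estimate of each gene's spread, so their calls are not independent. In MuRF1 -/- hearts 3867 genes passed (26.6%), 54.4% of them higher at 3 weeks, or 92.4% of 1834 with median centring, which moved the median of all genes there to 0.13. Of these, 1399 were higher and 1252 lower in both genotypes and 0 went in opposite directions, 74.4% of the MuRF1 +/+ calls and 68.6% of the MuRF1 -/- calls. Across the 14563 genes, which are not independent replicates, the differences correlated at 0.904 (Pearson) and 0.848 (Spearman), described with no test. Without 3-week replicate 4 of MuRF1 -/- hearts, 62.4% of 4059 MuRF1 +/+ calls and 63.8% of 3971 MuRF1 -/- calls were shared with the same direction, and the correlations were 0.832 and 0.734. The MuRF1 -/- differences were 3.75 for Pinx1, 2.71 for Malat1, 1.58 for Ttn, -2.11 for Nmrk2, -1.92 for Cyp1a1 and -0.80 for Hk1. Without 3-week replicate 4 of that genotype they were 3.65, 2.74, 1.49, -1.88, -1.94 and -0.81. Sex-linked transcripts split the MuRF1 -/- hearts of these diets in the same way, with differences of 3.86 for Xist and -2.32 for Ddx3y (3.79 and -2.53 without that heart), so both genotypes share that pattern with diet.

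The test of the difference between the genotypes' responses gave 0 genes in limma (328 at an unadjusted p under 0.05). Il15 and Misp3 shared the smallest adjusted p, 0.259. Il15 fell by 1.75 ± 0.23 in MuRF1 +/+ hearts and differed by 0.13 ± 0.23 in MuRF1 -/- hearts, whose chow levels were 0.22, 0.29 and 0.09. Its probe was well above background in only 1 of the 3 MuRF1 -/- chow hearts, which left little room to see a fall there. Without the 2 arrays that stand apart, 7 genes passed this test. Myl7 differed by 0.85 ± 0.50 in MuRF1 -/- hearts (0.22 ± 0.33 without 3-week replicate 4), and Hspa5 by 0.11 ± 0.16 (0.20 ± 0.16). A p that misses the threshold does not show that the genotypes respond alike.

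**Figure D5:**
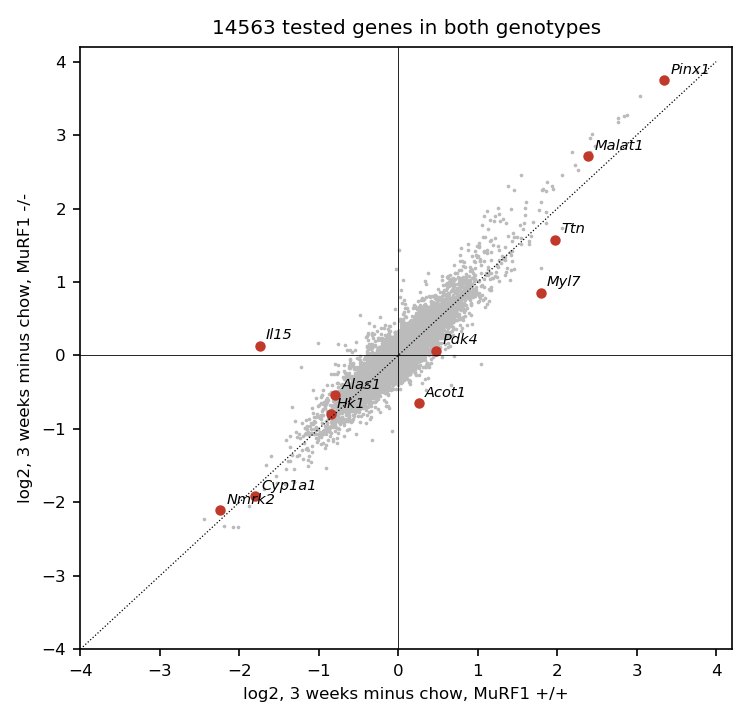
Difference between 3 weeks of fenofibrate and chow (log2) of 14563 genes in MuRF1 +/+ hearts (x axis) and MuRF1 -/- hearts (y axis), grey points, with 11 genes named in the text in red and the line of equal change dotted. Most genes follow the line, and Il15 lies at -1.75 and 0.13, with its probe well above background in only 1 of the 3 MuRF1 -/- chow hearts.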

How the data were processed

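A total of 20 2-colour Agilent arrays (design 014868) of mouse hearts were scanned, 1 heart per array in Cy5 against a pool of newborn pups in Cy3, per the labels, with no dye swap. A protocol in the labels names Cy3 for the heart RNA, while the channel labels give Cy5, which was followed. Per the file headers, Feature Extraction 9.5.3.1 gave the deposited mean signal and background intensity of each spot and a log10 ratio of red over green. The deposited value table holds the authors' log2 ratios with their scaling unstated, and was used as an alternative.

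Background was corrected with normexp (offset 50), leaving out spots whose background exceeded the signal by over 50, and arrays were normalised by loess with control spots at weight 0. Each gene was taken from its brightest probe and tested where 3 or more arrays marked its heart signal as well above background. Differences were fitted with limma 3.58.1 in R 4.3.3 (group means over all 20 arrays, moderated with an intensity trend, Benjamini-Hochberg threshold 0.05). The labels call the arrays biological replicates and their number limits the precision. In simulated data for the comparison (14315 genes), 66%, 90%, 98% and 100% of genes changed by 0.5, 1, 1.5 and 2 on the log2 scale were recovered, with 7 false among 184 calls. The simulation changed 50 genes at each size and drew noise independently for each gene. It held no sex-linked split and no shift in scaling, so these are not the error rates of the real comparison.

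Named genes are the 12 largest autosomal rises and falls with no overlap between groups, up to 4 called members of each list in each direction, any PPAR alpha target, and Trim63 and sex-linked genes as checks. Members and lists were chosen with earlier results of these data known. Genes with concordant probes and uncalled list members given for contrast were chosen after their values were seen. A few list members are not reported here. Promoters and gene spans came from RefSeq tables for GRCm38.p6. The alternatives covered background, scaling, filters, blocks, array weights and single hearts left out. Arrays scanned at the same time per the file headers were taken as a block. The alternatives of autosomal genes alone and of genes with concordant probes, and those without a heart that stood apart for 8 weeks against chow and for the overlap of the genotypes, were chosen after seeing the data.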

Additional observations from a re-analysis of the deposited data

Results flagged for a closer look

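Among 207 genes and list means checked over the 4 hearts at 3 weeks, 10 had 1 heart far from the other 3 by Dixon's ratio at its usual critical value for 4 samples, and chance gives about 1 in 20. Replicate 1 was low for Hk1 (0.4402, others 0.66 to 0.6723), Srebf1 (-1.866, others -1.31 to -1.202), Acot2 (0.006834, others 0.4246 to 0.4781) and the mean of the immediate early genes (-0.4704, others -0.3776 to -0.3661). Replicate 2 was high for Hand2 (0.5891, others 0.2225 to 0.2699). Replicate 3 was low for Gbp3 (0.9898, others 1.14 to 1.154) and high for Cpt2 (2.476, others 2.363 to 2.371) and the mean of the lymphocyte markers (-0.05725, others -0.114 to -0.1085). Replicate 4 was low for Myl7 (-0.5775, others -0.014 to 0.01081) and Ech1 (2.135, others 2.232 to 2.252).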

How the results depend on the processing

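The 3565 calls of the MuRF1 +/+ comparison became 1027 with median centring (959 shared), 2263 of genes above background on all 20 arrays, 374 with the Y-linked covariate, 5858 with only its 7 arrays fitted and 6807 with array weights, and 1999 to 3036 with 1 heart left out, lowest without chow replicate 3. The higher share was 50.2%, and 60.2% with Agilent's log ratio. The 3867 MuRF1 -/- calls became 2365 with normexp fitted on all spots, 2228 with the deposited table, 1834 with median centring, 2437 of genes above background on all arrays and 470 with the Y-linked covariate, and 2345 to 3971 with 1 heart left out. The difference of the responses gave 1 gene with Agilent's log ratio, 16 with array weights, 7 without the 2 arrays that stand apart and 0 to 1 with 1 heart left out. The 2585 calls against 8 weeks became 1211 with median centring, 1022 with only those groups fitted and 4757 with array weights, and 1737 to 2784 with 1 heart left out. The causes of these shifts were not tested.

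Deviations from group means correlated at -0.007, -0.148 and -0.027 for hearts with the same replicate number. Differently numbered hearts gave -0.309 to 0.282, so these values cannot show whether the numbers pair the hearts. With the replicate block 2991 genes passed. Among called genes considered for naming, signs turned for Cox4i1 with median centring (-0.0063) and for Nfil3 (0.047) and Eif2s3y (0.015) with the Y-linked covariate. Of these 138 called genes, 83 lost the call with median centring and 1 turned sign. Among the 83 were Alas1, Pnpla2, Srebf1, Ogdh, Hsp90b1 and Ddx5. The call was lost by 39 genes with the deposited table and by 28 with Agilent's log ratio. When some heart was left out, 62 lost the call, and 24 kept it with the Y-linked covariate. The 20 that kept it under every alternative run were Atg4d, Cited4, Ddx42, Dipk1b, Hk1, Il15, Kcnh2, L3mbtl2, Paxbp1, Pfkfb2, Pgp, Pinx1, Pnisr, Rnf111, Srrm3, Stra6, Tomm40, Ube2m, Xist and Zbtb20.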

Other observations

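Chromosome 8 held 660 of the 14563 tested genes, and 2153 had no chromosome assigned. Of the 10 genes with the smallest p for the difference between the genotypes' responses, 3 lie on chromosome 8, an observation made after the values were seen and not tested. Beside Il15 these are Misp3 and Gadd45gip1, which encodes a mitochondrial ribosome-associated protein. Gadd45gip1 had levels of 1.22, 0.73 and 1.42 in MuRF1 +/+ hearts on chow, -0.21, -0.13, 0.02 and -0.08 after 3 weeks and 0.54, 1.30 and 1.27 after 8 weeks of fenofibrate. In MuRF1 -/- hearts on chow it was at 0.04, 0.07 and 0.10, below every chow heart with MuRF1. Misp3 had levels of 0.83, 0.61 and 0.90 in MuRF1 +/+ hearts on chow and of -0.03, 0.21 and 0.24 in MuRF1 -/- hearts on chow. In MuRF1 +/+ hearts Misp3 was at 0.19, 0.41, 0.19 and 0.21 after 3 weeks and at 0.42, 0.39 and 0.68 after 8 weeks.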
